A study of Homo sapiens with 24 samples.

Results

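Replication-dependent histone genes encode the linker histone H1 and the core histones H2A, H2B, H3 and H4 that package newly copied DNA. They were followed here in newly made RNA of U2OS cells, a human osteosarcoma line, by 4sU-seq. The assay feeds cells 4-thiouridine (4sU), which polymerases use in place of uridine, and sequences the thiol-bearing RNA after it has been biotinylated and pulled out. Members were the protein-coding genes with a symbol of H2AC, H2BC, H3C or H4C followed by a number, and H1-1 to H1-5. This gave 68 genes of 61533 in the count table, with 5 in class H1, 17 in H2A, 18 in H2B, 13 in H3 and 15 in H4. A further 14 genes with similar symbols, 13 pseudogenes and the protein-coding H2BC12L, were left out.

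Each of 3 lines stably produced a HaloTag fusion of GR, the glucocorticoid receptor, whose gene is NR3C1. The wt GR cells carried the unmutated receptor, the SoF GR cells carried K492A, which was made to reduce RNA binding, and the Ctrl GR cells carried R470A, a control for a modest loss of DNA binding. The constructs, driven by a CMV promoter, were integrated into a line with low endogenous GR by PiggyBac transposition, and each line was 1 pool of cells selected with puromycin and sorted by flow cytometry. Construct and cell pool therefore cannot be told apart. Treatment was with the synthetic GR agonist dexamethasone at 100 nM for 1, 2 or 3 h in charcoal-stripped serum, and control cells (0 h) had 0.01% ethanol. All cells were labelled with 4sU in the last hour before harvest. How long the control cells were in ethanol is not given in the sources used here, so time in culture and dexamethasone cannot be told apart. Each of the 12 groups had 2 libraries, 8 per line and 24 in all. The sources used here do not say whether the 2 libraries came from separate cultures, so p-values measure the spread between these libraries only. Per the study's methods, the replicate pair of a sample went through biotinylation and pulldown together. Differences between groups may therefore include differences between pulldowns, which the spread within a group leaves out.

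Total counts ranged from 8106036 to 15820806 per library. Of 9 fixed glucocorticoid target genes, 7 were higher at 1 h averaged over the lines. In that comparison 1.28% of all 23651 genes tested were called in either direction (edgeR, adjusted p under 0.05). Over all times NR3C1 counts were higher in SoF GR cells than in wt GR cells by 1.89 ± 0.41 (log2 fold change ± SE, edgeR adjusted p = 0.00634) and in Ctrl GR cells by 2.18 ± 0.42 (adjusted p = 0.00261). These values are of RNA and not of receptor protein. The paper reports choosing sorted cell fractions so that nuclear GR protein, measured by immunofluorescence after dexamethasone, matched between the lines. Among osteoblast lineage markers, RUNX2 was at 51.5 to 158 CPM (counts scaled to the effective library size) and SPARC at 207 to 382 CPM in every library, while SP7 did not exceed 0.172 CPM. Among 10 markers of other cell types, HBB had no count, and the most abundant, EPCAM, averaged 2.01 CPM.

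Synthesis of these histones is coupled to DNA replication. Their transcripts are made mainly in S phase from clustered genes without introns, and they end in a conserved stem-loop rather than a poly(A) tail. The stem-loop is bound by the stem-loop binding protein SLBP and directs cleavage of the transcript with the U7 small nuclear ribonucleoprotein. Libraries were prepared with ribosomal RNA depletion and not by poly(A) selection, so transcripts without a poly(A) tail could be read. In bulk samples, fewer cells in S phase and less RNA per cell cannot be told apart.

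The stem-loop is the feature these genes share most completely, and it is shown for members that the results turn on. The transcript of every member (68 of 68) held the 16-base stem-loop pattern within 100 bases after the stop codon, read on the sense strand. The pattern searched runs GG, any 2 bases, CTT, any base, T, any base, AG, any 2 bases and CC. Only 5 of 19634 other protein-coding genes did (0.025%), namely AGTRAP, H1-6, H2AX, H3-4 and H3-7. The commonest form, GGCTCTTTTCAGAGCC, was present in 40 members. The second, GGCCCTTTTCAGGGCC, was present in 10. In the lines below, in GENCODE transcripts on hg38 read 5′ to 3′, capitals mark the 16-base stem-loop and lower case the flanking bases.
H1-2: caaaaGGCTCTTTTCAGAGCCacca
H2BC21: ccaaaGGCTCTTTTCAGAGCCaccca
H2BC12: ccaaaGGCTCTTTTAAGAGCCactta
H2AC11: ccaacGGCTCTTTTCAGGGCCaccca
H3C6: ccaaaGGCTCTTCTCAGAGCCaacca
H4C3: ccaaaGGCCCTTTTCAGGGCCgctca
H4C4: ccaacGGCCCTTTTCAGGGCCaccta
H4C14: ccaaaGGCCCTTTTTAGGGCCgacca
The 6-base stem paired fully in 66 members and at 5 positions in the other 2, of which H2AC11 is shown. H3C6, whose time course differed from that of most members, carried a form found in no other member. So did H2AC11, H2AC15 and H2AC20, all called higher at 3 h averaged over lines, and H2BC10 and H4C13. H4C3 and H4C4, which differed most between the lines, had the same stem-loop letters.

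Promoters differed by class. RefSeq sequence (GRCh38.p14) was matched for 63 members, and the 250 bases before the start were searched. The search covered both strands for ATTTGCAT and CCAAT and the gene's own strand alone for TATAAA. H2AC12, H3C11, H3C12, H4C1 and H4C3 had no match. The octamer ATTTGCAT, the site of POU2F1 (Oct-1), stood in 25 of 63 member promoters (39.7%) against 1.66% of 27305 promoters of the same length. It was present in 14 of 18 H2B promoters and 11 of 16 H2A promoters, and it was absent from this window in the classes H1, H3 and H4. H2A and H2B genes often lie head to head with overlapping windows, so 1 octamer could be counted for both genes of a pair. The letters CCAAT stood in 53 of 63 member promoters (84.1%) against 33.04% of all, but in only 3 of 13 H4 promoters. The letters TATAAA stood in 37 of 63 (58.7%) against 7.17%. The 120 bases before the start are shown for H2BC12 (chr6:27146856-27146975, minus strand), for H2BC13, the member with the largest 3 h change (chr6:27807930-27808049, minus strand), for H1-2 (chr6:26056471-26056590, minus strand) and for H4C4 (chr6:26189113-26189232, minus strand). Capitals mark ATTTGCAT and CCAAT on either strand and TATAAA on the strand shown.
H2BC12: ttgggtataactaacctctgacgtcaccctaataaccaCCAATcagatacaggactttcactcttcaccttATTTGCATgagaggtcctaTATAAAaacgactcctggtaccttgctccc
H2BC13: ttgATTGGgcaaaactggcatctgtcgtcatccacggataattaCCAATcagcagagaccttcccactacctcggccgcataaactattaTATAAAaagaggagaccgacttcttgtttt
H1-2: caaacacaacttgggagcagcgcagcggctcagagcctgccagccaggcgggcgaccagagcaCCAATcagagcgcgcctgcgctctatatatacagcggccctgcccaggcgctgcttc
H4C4: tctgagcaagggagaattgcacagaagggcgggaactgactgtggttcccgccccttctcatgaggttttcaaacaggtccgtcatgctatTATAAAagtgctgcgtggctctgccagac
H2BC12 held all 3 motifs, H2BC13 lacked the octamer letters, H1-2 held CCAAT alone and H4C4 held TATAAA alone.

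Some members cannot be separated by their reads. H2AC18 and H2AC19 had identical coding sequence, and their counts differed by at most 0.342% in any library. For H3C14 and H3C15, also identical in coding sequence, the difference was at most 0.221%, and for H4C14 and H4C15 at most 0.51%. These 3 pairs lie close together on chromosome 1 and held 37.9% of all member counts. Because how the counting treated reads with several matches is not given in the sources used here, each pair is described as 1 locus with 2 names. H4C11 and H4C12 also had identical coding sequence, but their counts differed by 1.24% to 4.18%. In contrast, 50 members shared no 100-base window with another member. H2AC7 and H3C4 overlap a readthrough gene on the same strand, and H4C3 lies within the span of H2BC4 on the opposite strand, where the strand of counting rests on the title of the table alone.

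Levels spanned a wide range. The members lie on chromosome 6 (54 genes), chromosome 1 (13) and chromosome 12 (H4C16). Per kilobase of exon, averaged over the 24 libraries, the highest were H2AC19 at 2365 CPM per kb, H2AC18 at 2364, H3C15 at 1540 and H3C14 at 1528. They were followed by H1-2 at 1381, H2AC11 at 1277 and H2BC12 at 1151. The divisor was all annotated exon bases, so genes with long annotation rank lower on this scale. H4C14, with 1878 exon bases, was at 606 CPM per kb but at 1139 CPM. H2AC18, with 533 exon bases, was at 1260 CPM. H2BC21, with 2224 exon bases, was at 386 CPM per kb and 858 CPM. H4C3 reached 9.04 CPM per kb and H4C4 14.5. A mean below 1 CPM was found for 21 members, 19 of them on chromosome 6. H1-3, H4C6 and H3C11 had no count in any library, which allows up to 0.0105 CPM over all libraries together (3 counts, covering counting error only).

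Many of the low members lay side by side. Of the 21, 13 fell into 2 uninterrupted runs, and the other 8 formed 4 runs of 2. The first, from H1-3 to H2BC10 (chr6:26234212-26273412), held 7 members with 200 counts among them, 3 on the plus strand and 4 on the minus strand. The second, from H2AC16 to H2AC17 (chr6:27865317-27893185), held 6 members with 211 counts in all. These runs include H1-3 and H1-5, so that H1-1, H1-2 and H1-4 carried nearly all H1 counts. The first run lay between H3C6, which was itself low at 2.78 CPM, and H4C8 at 268 CPM. The second lay between H2BC15 at 66.0 CPM and H2BC17 at 4.15 CPM. Low levels also occurred singly among high neighbours, as for H4C3 between H2BC4 and H2AC6. The only other annotated gene inside these runs was a histone pseudogene, H2AC10P, with 5 counts.

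**Figure D1:**
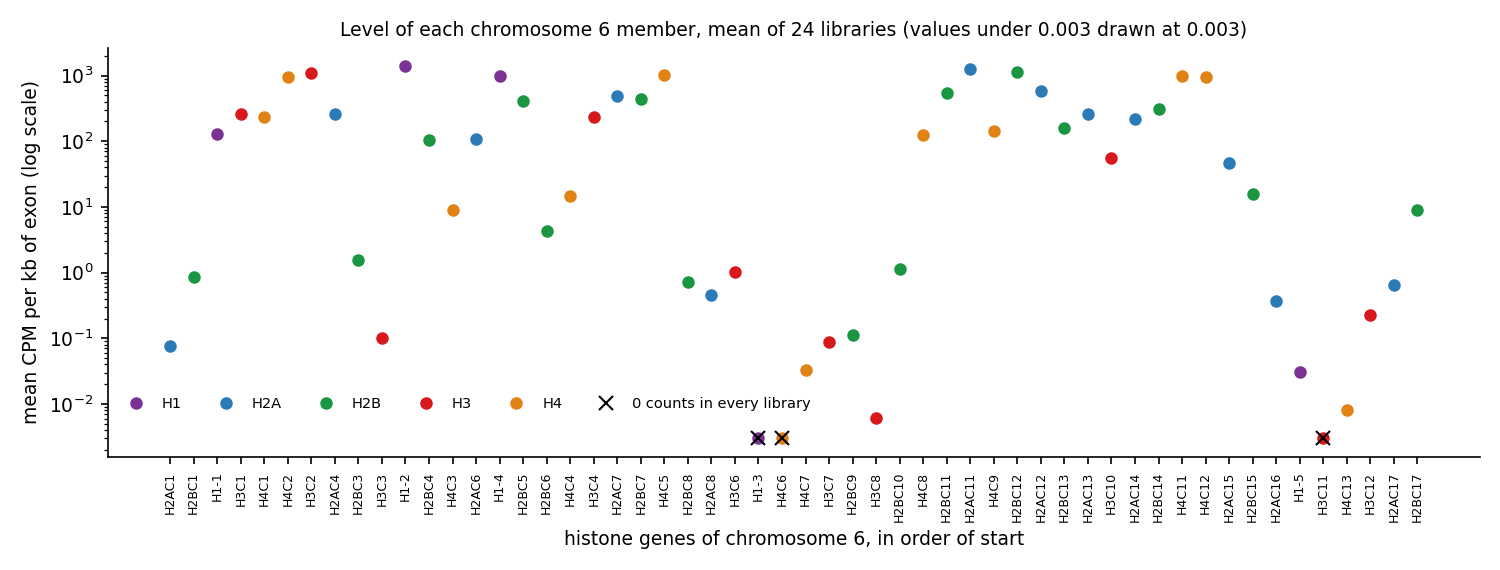
Mean level of the 54 members on chromosome 6 over 24 libraries, in CPM per kilobase of exon on a log axis, in order of position from left to right and coloured by class. The runs H1-3 to H2BC10 and H2AC16 to H2AC17 sit at or below 1.14 CPM per kb, H4C8 next to the first run is at 124 CPM per kb, and crosses mark the 3 genes with no count.

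The question of the time course is how production of these transcripts moved after dexamethasone. The share of each library's counts that fell in members, with the 3 near-identical pairs counted once each, had its lowest mean at 1 h and its highest at 3 h in each line. In wt GR cells it was 1.64% and 1.40% in the libraries at 0 h, 1.36% and 1.02% at 1 h, 2.00% and 1.70% at 2 h, and 1.78% and 2.16% at 3 h. In SoF GR cells it was 1.00% and 0.870% at 0 h, 0.745% and 0.879% at 1 h, 1.26% and 1.23% at 2 h, and 1.34% and 1.71% at 3 h. In Ctrl GR cells it was 1.34% and 0.894% at 0 h, 0.974% and 1.12% at 1 h, 1.21% and 1.61% at 2 h, and 1.49% and 1.78% at 3 h. The 3 h libraries stood above both 0 h libraries in all 3 lines, while the 1 h libraries stood below both only in wt GR cells. In each line the first 0 h replicate was higher than the second, most widely in Ctrl GR cells.

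**Figure D2:**
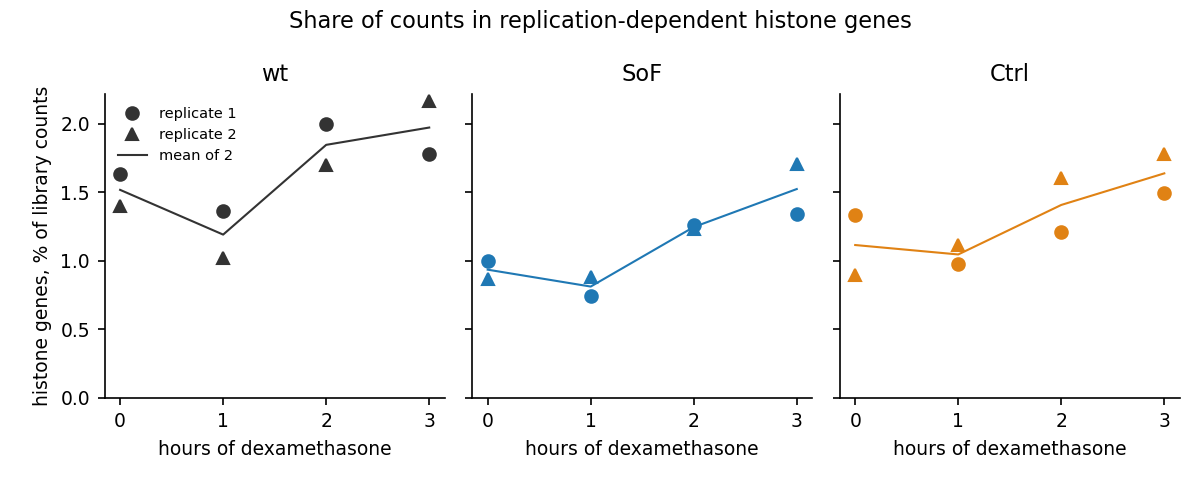
Percent of each library's counts in the 68 members (3 near-identical pairs counted once each) against hours of dexamethasone, with 1 panel per line, points for the 2 libraries of a group and a line through their mean. The means at 3 h are 1.97% in wt, 1.52% in SoF and 1.64% in Ctrl, each above the mean at 0 h (1.52%, 0.936% and 1.12%).

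For gene by gene tests, 51 of 68 members passed the filter on low counts in the fit over 12 groups. At 1 h no member passed the edgeR quasi-likelihood test at an adjusted p under 0.05 in any line or averaged over lines. Of all 23651 genes tested, 1.28% passed in the average, 0.156% in wt, 0.165% in SoF and 0.0465% in Ctrl GR cells. At an unadjusted p under 0.05, 25 members differed in the average, 13 in wt, 1 in SoF and none in Ctrl GR cells. How many of all genes passed that unadjusted limit was not counted. DESeq2 also called no member at 1 h. The fold change in the average was negative for 49 of 51, with a median of −0.29 (log2) against 0.01 over all genes tested. In wt GR cells both 1 h libraries lay below both 0 h libraries for 36 of 51 members, against 18.4% of all genes tested. The same held for 18 of 51 in SoF GR cells, against 16.1%, and for 2 of 51 in Ctrl GR cells, against 8.08%. Leaving out 1 library, the second Ctrl GR library at 0 h, gave 6 calls in the average at 1 h, and leaving out the low-count filter gave 25.

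At 2 h, 32 of 51 members were called in the average over lines, 31 of them higher and 1 lower, against 28.8% of all genes called (16.2% higher and 12.6% lower). No member was called in a single line, against 4.6% of all genes in wt GR cells, 5.68% in SoF and 7.95% in Ctrl. At an unadjusted p under 0.05, 13, 27 and 22 members differed in wt, SoF and Ctrl GR cells. The number of all genes under that unadjusted limit was not counted. DESeq2 called no member in a single line. These zeros depended on the fit. In Ctrl GR cells 26 members were called without the first 0 h library, all higher, and without the low-count filter 5, 24 and 15 were called in wt, SoF and Ctrl. Both 2 h libraries lay above both 0 h libraries for 28 of 51 members in wt GR cells, against 24.7% of all genes tested, for 44 in SoF, against 23.4%, and for 1 in Ctrl, against 26.5%. The 4 higher members with the smallest p were H2AC18 and H2AC19 (0.60 ± 0.13 each, adjusted p = 0.00183 and 0.00184), H2AC12 (0.55 ± 0.12, adjusted p = 0.002) and H2BC14 (0.60 ± 0.14, adjusted p = 0.00248). The count of 32 fell to 18 without the second Ctrl GR library at 2 h, and to 21 without the second 0 h library of wt or of Ctrl GR cells. H3C6, an H3 gene with 2679 bases of annotated exon, was the single member called lower (−0.77 ± 0.26, adjusted p = 0.0307). It was at 3.51 and 3.92 CPM at 0 h and 2.79 and 0.867 CPM at 2 h in wt GR cells, where the groups did not overlap. This call was lost in 7 of the alternatives tried.

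At 3 h the rise covered most expressed members. Averaged over lines, 37 of 51 were higher and none lower, against 20.9% of all genes called higher and 40.3% called in either direction. The median fold change was 0.57 (log2) against −0.03 over all genes tested. Leaving out single libraries left 32 to 38 members called. The smallest p-values belonged to H2BC14 (1.00 ± 0.14, adjusted p = 7.1e-06), H2BC13 (1.06 ± 0.15, adjusted p = 8.32e-06), H3C10 (0.92 ± 0.13, adjusted p = 1.2e-05) and H2AC7 (0.81 ± 0.13, adjusted p = 2.7e-05). All but H2AC7 sit in the same block of the cluster on chromosome 6, where H2AC13 rose by 0.85 ± 0.14 (adjusted p = 3.37e-05). The lowest value was that of H3C6, at −0.55 ± 0.25 (adjusted p = 0.0911).

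**Figure D3:**
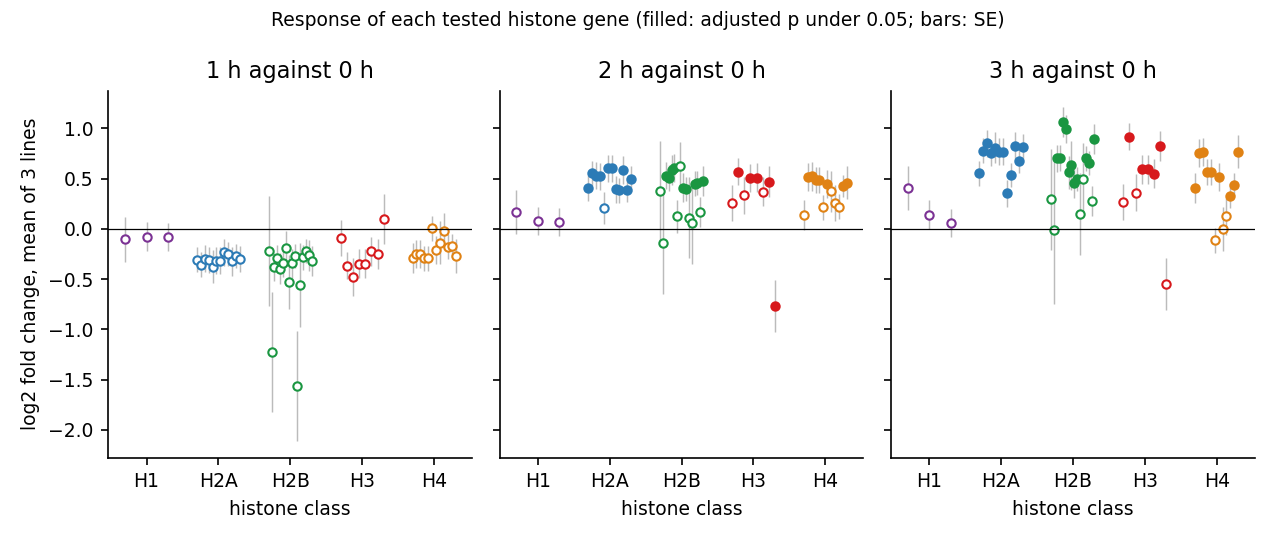
Log2 fold change of the 51 tested members at 1, 2 and 3 h against 0 h, averaged over the 3 lines, arranged by histone class. Filled points passed the edgeR test at an adjusted p under 0.05 and bars are SE. At 3 h the H2A, H2B, H3 and H4 points lie mostly above 0 and the 3 H1 points between 0.06 and 0.41 are open.

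Calls and medians at 3 h in the average over lines are given by class, against 20.9% of all genes called higher. The difference between classes was not tested. Of the core histones, called members numbered 12 of 12 in H2A, with a median of 0.77, 11 of 16 in H2B, with a median of 0.60, 5 of 8 in H3, with a median of 0.57, and 9 of 12 in H4, with a median of 0.48. None of the 3 tested linker histone genes was called. H1-2 changed by 0.14 ± 0.14 (adjusted p = 0.451), H1-4 by 0.06 ± 0.14 (adjusted p = 0.766) and H1-1 by 0.41 ± 0.22 (adjusted p = 0.143). In the promoter set, 7 of 7 tested H2A members with the octamer were called higher at 3 h, as were 4 of 4 without it. Among H2B members 8 of 12 with it and 3 of 4 without it were called higher. The median fold change was 0.63 over the 19 tested members with the octamer and 0.57 over the 29 without it.

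The most abundant members show the course in each library. H1-2, a linker histone, was at 1340 and 1249 CPM at 0 h in wt GR cells, 1421 and 713 at 1 h, 1473 and 1185 at 2 h, and 1151 and 1376 at 3 h. In SoF GR cells it went from 722 and 667 CPM at 0 h to 860 and 1103 at 3 h, and in Ctrl GR cells from 1262 and 736 to 894 and 1050. The groups at 0 and 3 h overlapped in wt and Ctrl GR cells and not in SoF GR cells, where the change was 0.50 ± 0.25 (adjusted p = 0.164). The second wt GR library at 1 h stood far below the others of that line for H1-2, and it was likewise low for H1-4 (555 CPM) and H1-1 (53.1 CPM).

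H2BC12, an H2B gene, varied less between replicates at 1 and 2 h in wt GR cells. In wt GR cells it was at 680 and 545 CPM at 0 h, 454 and 452 at 1 h, 896 and 849 at 2 h, and 777 and 987 at 3 h. In SoF GR cells it was at 399 and 330 CPM at 0 h, 267 and 335 at 1 h, 520 and 514 at 2 h, and 527 and 750 at 3 h. In Ctrl GR cells it was at 541 and 326 CPM at 0 h, 376 and 406 at 1 h, 496 and 743 at 2 h, and 667 and 832 at 3 h. Both 3 h libraries lay above both 0 h libraries in every line. Its 3 h change was 0.53 ± 0.22 in wt GR cells (adjusted p = 0.143), 0.81 ± 0.23 in SoF (adjusted p = 0.0144) and 0.79 ± 0.22 in Ctrl (adjusted p = 0.021), with an average of 0.71 ± 0.13 (adjusted p = 0.000159).

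Among other abundant core histone genes, H2AC11 was at 816 and 666 CPM at 0 h and 869 and 1054 at 3 h in wt GR cells, and at 458 and 375 against 585 and 774 in SoF GR cells. Averaged over lines it rose by 0.55 ± 0.13 (adjusted p = 0.00159). H2BC21 rose by 0.50 ± 0.12 (adjusted p = 0.00213), from 1146 and 882 CPM to 1185 and 1348 in wt GR cells. H2BC11 rose by 0.70 ± 0.14 (adjusted p = 0.000306). The near-identical pairs rose by 0.77 ± 0.14 for H2AC18 and H2AC19, by 0.59 ± 0.14 for H3C14 and H3C15 and by 0.57 ± 0.13 for H4C14 and H4C15. H3C2 rose by 0.55 ± 0.14 (adjusted p = 0.00401) and H4C5 by 0.33 ± 0.13 (adjusted p = 0.0431). The call of H4C5 was lost in 6 alternatives. H4C3, the least abundant of the marker genes, changed by 0.00 ± 0.22 (adjusted p = 0.997).

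**Figure D4:**
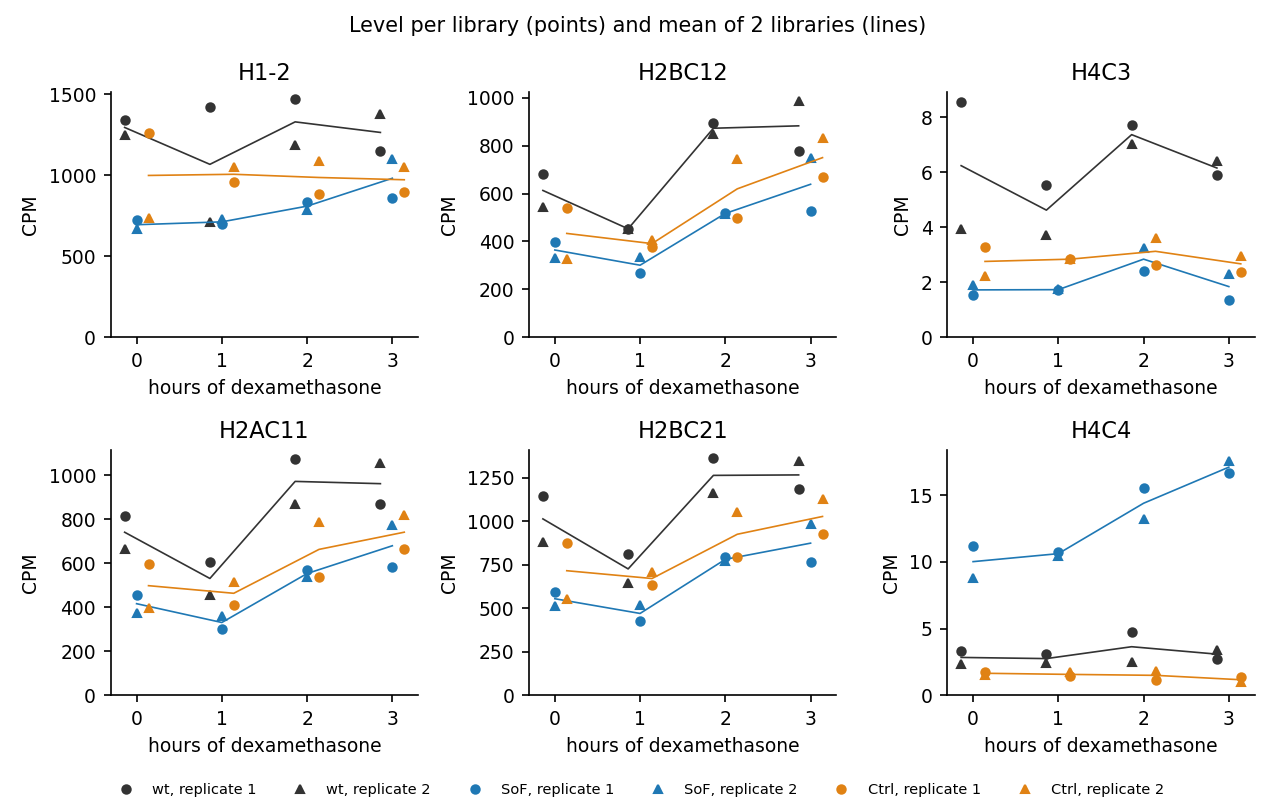
CPM of 6 members in every library against hours of dexamethasone, with points for libraries and lines through the mean of 2, coloured by line. H2BC12, H2AC11 and H2BC21 have their lowest mean at 1 h in each line and higher means at 3 h than at 0 h, and the H4C4 points of the 3 lines do not overlap.

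Within single lines the number of calls at 3 h ranged widely. SoF GR cells had 32 members higher, against 11.2% of all genes higher and 19.3% called. Ctrl GR cells had 19 higher, against 8.58% and 14.2%, and wt GR cells had 2 higher, H2BC14 (0.85 ± 0.24, adjusted p = 0.0247) and H2BC13 (0.88 ± 0.26, adjusted p = 0.029), against 6.6% and 10.7%. No member was called lower in any line. In SoF GR cells the smallest p-values belonged to H3C10 (1.18 ± 0.23), H2BC14 (1.14 ± 0.24), H2BC13 (1.18 ± 0.26) and H2AC13 (1.03 ± 0.24). In Ctrl GR cells they belonged to H2BC13 (1.11 ± 0.26), H2BC14 (1.00 ± 0.24), H2AC7 (0.88 ± 0.22) and H3C10 (0.92 ± 0.23). Over the tested members, the median change came to 0.34 for wt GR cells, 0.76 for SoF and 0.63 for Ctrl. Both 3 h libraries lay above both 0 h libraries for 26 of 51 members in wt GR cells, against 26.6% of all genes tested, for 47 of 51 in SoF, against 30% of all genes, and for 35 of 51 in Ctrl, against 28.9%.

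These counts rest on few libraries. Without the second 3 h library of SoF GR cells 1 member was called there, and without the second 0 h library 3 were. In Ctrl GR cells 33 were called without the first 0 h library and none without the second 0 h library or the second 3 h library. In wt GR cells none was called without either 0 h library or without the second 3 h library, while DESeq2 called 5. The difference in response between lines was tested directly, and no member passed in SoF against wt (0% of all genes called), SoF against Ctrl (0.0127%) or Ctrl against wt (0%). For 51 of 51 members the SoF value of the 3 h change exceeded the wt value, with a median difference of 0.39 (log2) against 0.02 over all genes tested. The Ctrl value exceeded the wt value for 46 of 51, with a median difference of 0.23, and the SoF value exceeded the Ctrl value for 45 of 51, with a median of 0.18. The contrasts against wt share the same wt GR libraries. All members were read in the same libraries, and near-identical pairs count as 2 genes. Counts of direction, here and elsewhere, are therefore not of separate observations. At an unadjusted p under 0.05, a limit at which all genes were not counted, 1 member differed between SoF and Ctrl (H4C4). None differed in the other contrasts, and DESeq2 called none. For H2BC12 the SoF minus wt difference was 0.28 ± 0.32 and for H1-2 it was 0.53 ± 0.35.

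The comparison of lines over all times asks which levels differed between the lines with treatment time ignored. Each line gave 8 libraries from 1 cell pool, and 49 members passed the filter. In SoF GR cells 20 of 49 members differed from wt GR cells, 19 of them lower and 1 higher, against 8.02% of all 21122 genes called (4.57% higher and 3.45% lower). The fold change was negative for 48 of 49, with a median of −0.58 (log2) against −0.01 over all genes tested. All 3 tested H1 genes were called lower, with 3 of 12 H2A genes, 3 of 14 H2B genes, 4 of 8 H3 genes and 6 of 12 H4 genes. The 4 lower members with the smallest p were H4C3 (−1.57 ± 0.18, adjusted p = 4.67e-06), H1-4 (−0.66 ± 0.12, adjusted p = 0.00113), H4C9 (−1.19 ± 0.24, adjusted p = 0.00365) and H1-2 (−0.62 ± 0.13, adjusted p = 0.00384). H2BC12 differed by −0.62 ± 0.22 without passing (adjusted p = 0.0735).

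The count of called members in this comparison depended on the fit. With time as an additive term 45 members were called (44 lower), and DESeq2 called 26. The share of all genes called was not taken for these fits, so these counts cannot be set against it. Leaving out the second wt GR library at 1 h, or the second SoF GR library at 3 h, gave 33 each. With only first replicates 7 were called, with only second replicates 1, and with the 0 h libraries alone none. At 0 h, however, libraries of the same replicate number deviated together in all 3 lines (correlations of 0.39 to 0.57 between groups). With the replicate number as a block, a fit added after this was seen and with 2 residual degrees of freedom, the 0 h libraries alone gave 45 calls for SoF against wt, 44 of them lower (12.8% of all genes called), 39 for Ctrl against wt, all lower (9.92%), and 3 for SoF against Ctrl (1.75%).

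The remaining line contrasts held fewer calls. In Ctrl GR cells 2 of 49 members differed from wt GR cells, H4C3 (−1.08 ± 0.18, adjusted p = 0.000599) and H4C4 (−1.05 ± 0.18, adjusted p = 0.00107), against 4.77% of all genes called (2.66% lower). The median over members was −0.36, and with time as an additive term 31 were called, all lower. Between SoF and Ctrl GR cells 1 of 49 was called, H4C4 (3.13 ± 0.18, adjusted p = 4.04e-12), against 3.61% of all genes called (2.16% higher). There the additive time term gave 15 calls, 14 of them lower. For the additive time term the share of all genes called was not taken in any contrast.

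H4C4 was the single member higher in SoF GR cells (2.08 ± 0.16 against wt, adjusted p = 4.89e-09). Its 8 SoF GR libraries ranged from 8.82 to 17.5 CPM with a median of 12.2, the wt GR libraries from 2.39 to 4.78 with a median of 2.94, and the Ctrl GR libraries from 0.99 to 1.84 with a median of 1.48. The 3 lines did not overlap in any library, and the SoF mean was 4.22 times the wt mean and 8.82 times the Ctrl mean. These levels rest on 88 to 206 reads per library in SoF, 29 to 65 in wt and 11 to 26 in Ctrl GR cells. The members on either side of it, chosen here after their values were seen, showed no such rise. H2BC6 differed by −0.28 ± 0.16 in SoF against wt (adjusted p = 0.281) and H3C4 by −0.52 ± 0.24 (adjusted p = 0.168).

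H4C3, a low-level H4 gene, followed another order. The wt GR libraries ranged from 3.71 to 8.56 CPM with a median of 6.16, the SoF GR libraries from 1.37 to 3.26 with a median of 1.83, and the Ctrl GR libraries from 2.24 to 3.62 with a median of 2.84. The wt libraries did not overlap with either mutant, while the SoF and Ctrl libraries did, with a difference of −0.49 ± 0.19 (adjusted p = 0.188). H4C9, another H4 gene, ranged from 33.0 to 118 CPM in wt (median 75.5), from 19.7 to 62.0 in SoF (median 30.9) and from 35.8 to 92.4 in Ctrl GR cells (median 54.4), with all lines overlapping.

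**Figure D5:**
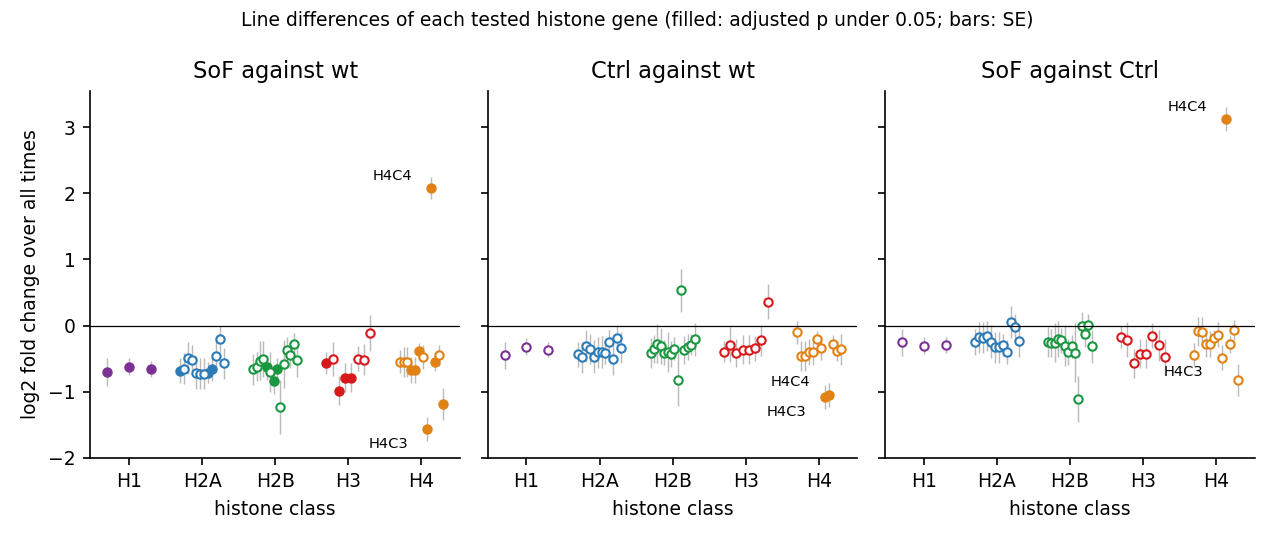
Log2 fold change over all times of the 49 members tested between lines, arranged by class, for SoF against wt, Ctrl against wt and SoF against Ctrl. Filled points passed the edgeR test at an adjusted p under 0.05 and bars are SE. Most points lie below 0 in the first 2 panels, and H4C4 stands apart at 2.08, −1.05 and 3.13.

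Other genes of the pathway were read from fixed lists in the same fits. Of 12 replication-independent histone genes, none rose and 4 fell at 3 h in the average over lines (33.3% against 40.3% of all genes). The 4 included H2AZ2 (−0.39 ± 0.08, adjusted p = 0.000536), H3-5 (−0.75 ± 0.19, adjusted p = 0.00277) and H3-3B (−0.39 ± 0.11, adjusted p = 0.0064). Expression of the 12 genes is not limited to S phase, and 1 of them, H2AX, held the stem-loop pattern. Their median was −0.12, where that of the members was 0.57. Of 17 genes for histone gene transcription and 3′ processing, 4 rose and 1 fell (29.4% called, against 40.3% of all genes), with a median of 0.15. They included LSM10 (0.73 ± 0.13, adjusted p = 9.96e-05) and LSM11 (0.48 ± 0.12, adjusted p = 0.0023), which encode proteins of the U7 particle, and CSTF2 (0.34 ± 0.08, adjusted p = 0.00128), a cleavage factor. Of 14 histone chaperone genes 3 rose and 3 fell (42.9% called, against 40.3% of all genes). Among them were NASP, which binds newly made H3 and H4 (−0.59 ± 0.09), HIRA (0.47 ± 0.08) and HAT1 (−0.59 ± 0.10).

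Of 27 genes of G1/S and DNA replication 3 rose and 3 fell at 3 h (22.2% called, against 40.3% of all genes), with a median of −0.07. CCNE2 (0.61 ± 0.13, adjusted p = 0.00092) and CCNE1 (0.51 ± 0.11, adjusted p = 0.00114), cyclins of S phase entry, rose, and E2F2 fell (−0.59 ± 0.14, adjusted p = 0.00227). Of 20 G2/M genes 4 rose and 6 fell (50% called), with CDC20 at 0.83 ± 0.13, PLK1 at 0.86 ± 0.15 and CENPE at −0.81 ± 0.14. Of 5 cell cycle inhibitor genes 2 rose, CDKN2D (0.84 ± 0.16) and CDKN1B (0.43 ± 0.09), against 20.9% of all genes called higher and 40.3% called in either direction. In SoF against wt GR cells 6 of 27 G1/S genes were lower and none higher (22.2% called, against 8.02% of all genes), including FEN1 (−0.38 ± 0.08, adjusted p = 0.00307), PCNA (−0.45 ± 0.11, adjusted p = 0.0112) and MCM2 (−0.38 ± 0.10, adjusted p = 0.0213), with a list median of −0.14. The part of cell cycle distribution in the results on the members was not tested.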

How the data were processed

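4sU-seq libraries of 3 U2OS lines were analysed. Per the labels and the study's methods, the authors tagged molecules with UMI-tools 1.1.2, trimmed reads with Trim Galore 0.6.6, aligned them to hg38 with STAR 2.7.3a and counted reads over exons with featureCounts on GENCODE release 39. The deposited values are deduplicated read counts per gene, without normalization. Treatment of reads with several matches is not given in the sources used here. Names and positions came from GENCODE release 44, which matched 99.7% of genes.

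After TMM scaling and filterByExpr (at least 10 counts, total at least 15), genes were tested by quasi-likelihood in edgeR 4.0.16, run under R 4.3.3 beside limma 3.58.1. P-values were adjusted over all genes tested (Benjamini-Hochberg), and 0.05 was the limit for a call. The fit on all 12 groups gave the responses, averages and line differences in response. A fit on construct alone gave the line comparisons, in which the spread includes time (common biological coefficient of variation 24%, against 14.2%). SE was taken as |log2 fold change|/√F. Levels are CPM with TMM factors. Alternatives were DESeq2 1.42.0, RLE normalization, no filter, a replicate block, time as a term, single lines, the 0 h libraries alone and left-out libraries. Scripts were tested on simulated data.

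Members and lists were chosen with earlier results of these data known. Genes named in full were H1-2, H2BC12, H4C3 and the 3 members with the highest mean CPM per class. In a comparison all called members were named if there were 8 or fewer, otherwise the 4 with the smallest p in each direction, and at most 3 genes per other list. Counts of members include near-identical pairs as 2 genes.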

Additional observations from a re-analysis of the deposited data

Results flagged for a closer look

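In 78 sets of 8 libraries of 1 line (25 named members and the member share of counts), 7 had a library far from the others by Dixon's test, and chance flags about 1 in 20. The 8 libraries span 4 times, so a far library can also be a far group. The second wt library at 1 h was low for H1-2 (713 CPM, next lowest 1151) and H1-4 (555 CPM, next lowest 852). The second SoF library at 3 h was high for H1-2 (1103 CPM, next highest 860), H1-4 (774 CPM, next highest 631) and H4C5 (490 CPM, next highest 367). The second Ctrl library at 1 h was high for H3C6 (6.17 CPM, next highest 3.77), and the first wt library at 2 h was high for H4C4 (4.78 CPM, next highest 3.42).

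Both 3 h libraries lay above both 0 h libraries for H4C4 in SoF (0.764 on the log2 scale) and below them in Ctrl (−0.507). The Ctrl values rest on 25 and 13 reads at 0 h and 16 and 11 at 3 h. Such non-overlap held for 30.0% of all genes tested in SoF (higher) and 27.2% in Ctrl (lower). The 3 h response of H4C4 went in opposite directions in the mutants. The difference was 1.27 ± 0.45 in favour of SoF, with an unadjusted p of 0.0103 and an adjusted p of 1.00 in edgeR, so it did not pass.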

How the results depend on the processing

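The count of 37 members called at 3 h in the average over lines stayed within 1.5 times under all alternatives run (32 to 38 with a library left out). The causes of the changes below were not tested. Among the alternatives, the share of all genes called was taken only for the 0 h libraries with a replicate block.

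Without the low-count filter, calls numbered 25 at 1 h in the average and 6 in wt, 5, 24 and 15 at 2 h in wt, SoF and Ctrl, and 20 and 32 at 3 h in wt and Ctrl. With a line's 8 libraries alone, calls numbered 4 at 2 h in SoF and 6 at 3 h in wt. DESeq2 gave 5 at 3 h in wt and 3 for SoF against Ctrl. An additive time term gave 45, 31 and 15 calls for SoF against wt, Ctrl against wt and SoF against Ctrl. The 0 h libraries alone gave 0 in each, but 45, 39 and 3 with a replicate block, added after seeing the data.

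With libraries left out, calls ranged from 0 to 6 at 1 h in the average and from 0 to 1 in wt. At 2 h they ranged from 18 to 35 in the average, 0 to 1 in wt and 0 to 26 in Ctrl. The 26 came without the first Ctrl library at 0 h, and 2 were called without the first at 2 h. At 3 h they ranged from 0 to 2 in wt, 1 to 33 in SoF and 0 to 33 in Ctrl. Between lines they ranged from 1 to 33 for SoF against wt, 0 to 5 for Ctrl against wt and 1 to 2 for SoF against Ctrl. Leaving out the second wt library at 1 h or the second SoF library at 3 h was chosen for the line contrasts after seeing the data. Where 1 library remained in a group, its spread was taken from the other groups.

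Replicate numbers did not pair the samples throughout, since the correlation of deviations ranged from −0.22 to 0.57 over 66 pairs of groups and exceeded 0.1 in 21. It was 0.39 to 0.57 between the 0 h groups. The study's methods pair the replicates of a sample for the pulldown. Neither they nor the labels say what libraries of the same number share across groups. A replicate block alone gave 33 calls at 2 h and 37 at 3 h in the averages and 20, 2 and 1 between lines, and moved no other count by over 1.5 times. The block with a time term gave 45, 32 and 16 between lines.

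The 3 h value of H1-4 turned to −0.0182 without the second SoF library at 3 h and to −0.0412 without the second Ctrl library at 0 h, in a range of −0.0412 to 0.1949 over libraries left out. That of H4C3 turned to 0.0036 without the filter, 0.0043 with the replicate block, and ranged from −0.1426 to 0.2209 with a library left out. Over the named genes 634 values kept direction and side of the threshold, 69 lost the call, 29 gained it and 10 turned sign. Low depth limits H4C3 and H4C4, and members under 1 CPM were mostly not tested.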
